A study of Mus musculus with 2 samples.

Results

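A group of enzymes of glutathione chemistry was followed in RAW264.7 cells with and without retroviral miR-155; the line is macrophage-like, of mouse origin and transformed by Abelson leukaemia virus. The group comprised 10 genes: the glutathione transferases Gstm1, Gsta4, Gstp1, Gsto1, Mgst1 and Mgst3, the glutathione peroxidases Gpx1 and Gpx4, the glutathione reductase Gsr and the glutathione synthetase Gss. The members were every probeset that the platform annotation assigned to exactly one of these symbols, which gave 19 of the 45101 probesets on the array. The genes were chosen by function and, with earlier results of the same 2 arrays known, also by their signal in miR-155 cells against that in empty-vector cells. All values below are therefore descriptions.

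The miR-155 cells had been infected with the murine stem cell retrovirus vector (MSCV) carrying mir-155, and the empty-vector cells with MSCV alone. In both arms puromycin (7 µg/ml) was used for selection, cells were cloned by limiting dilution and 5 clones were combined into 1 RNA pool, so that polybrene, vector and drug were common to both. Each pool was read on 1 array, and neither the promoter that drove mir-155 nor its level in the clones was given in the sources used here. There was no replicate array, so no test was possible, and differences between clones, cultures and arrays cannot be told apart from a difference caused by miR-155. In a bulk RNA pool, fewer expressing cells and less RNA per cell cannot be told apart either.

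Glutathione is a tripeptide that cells keep mostly in its reduced form. Its thiol is used by transferases to tag reactive and lipophilic compounds and by peroxidases to reduce hydrogen peroxide and lipid hydroperoxides, and the oxidised product is returned to the thiol by glutathione reductase at the expense of NADPH. In macrophages, which generate oxidants themselves, many of these genes are known targets of the transcription factor NRF2, whose DNA elements are also bound by the repressor Bach1.

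The microRNA carried by the vector is shown because every comparison is between cells with and without it. The mature miR-155 arm is given from RefSeq (GRCm38.p6, chr16:84714143-84714165, plus strand), with its seed, bases 2 to 8, in capitals.
mmu-miR-155-5p: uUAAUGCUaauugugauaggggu
The array did not measure this mature RNA. The probeset of its host gene Mir155hg read 1.05 in miR-155 cells and 0.73 in empty-vector cells, among the lowest signals of both arrays, and it is no check of the labels, since how much of the host transcript the vector carries is not stated.

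The values are probeset signals on a linear scale, as deposited. The median of all probesets was 14.1 on the miR-155 array and 15.4 on the empty-vector array. For counting, each of 18193 genes was represented by its brightest probeset, and the 9097 genes in the upper 50% of mean log2 signal were kept, which set a signal floor of 25.8. Macrophage identity was checked with 10 markers, all above that filter, whose summed signal was 25037 in miR-155 cells and 24932 in empty-vector cells. That sum holds opposite differences: 2 of the 10 were at least 1.5-fold lower in miR-155 cells, the surface marker Adgre1 (log2 ratio −0.71) and the transcription factor Spi1 (−0.61), and 2 at least 1.5-fold higher, the lipopolysaccharide co-receptor Cd14 (1.26) and the Fc receptor Fcgr1 (0.66). Csf1r, the receptor for macrophage colony-stimulating factor, read 5095 in miR-155 cells and 6040 in empty-vector cells (−0.25), with −0.99 and −0.96 on its further probesets. The part of these differences in the ratios of the glutathione enzymes was not tested. Of 21 listed fibroblast, epithelial, B-cell, T-cell and erythroid markers on the array, 1 passed the filter, the epithelial adhesion molecule Epcam, at 32.2 in miR-155 cells and 37.6 in empty-vector cells. The summed signal of the 21 was 196 in miR-155 cells and 171 in empty-vector cells. The only other reading of theirs at or above the floor was that of 1 Cd8a probeset, at 26.5 in miR-155 cells and 14.8 in empty-vector cells, while collagens, keratins, Cd79a, Cd79b, Cd3e, Cd3g and haemoglobin lay below it on both arrays.

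Most of the glutathione enzymes with a clear signal differed little between the arrays. Of the 10 genes, 8 were kept and 2, Gsta4 and Mgst1, were too dim. Among the 8, Gstm1 alone was at least 1.5-fold lower in miR-155 cells by its brightest probeset, 0 were at least 1.5-fold higher and 7 lay within 1.5-fold. Over all 9097 genes kept, 5.99% were at least 1.5-fold lower and 5.32% at least 1.5-fold higher; since this comparison was used to choose the genes, nothing is read from the share of 1 in 8. The ratio of miR-155 to empty vector was below 1 for 6 of the 8 genes and above 1 for Mgst3 and Gss, and 58% of all genes kept had a ratio below 1. With the median log2 ratio of all probesets set to 0, Gpx1 moved to the other side, leaving 5 of the 8 below 1. That rescaling also moved the share of higher among all 1.5-fold differences to 58.9%, against 47.0% for the values as deposited. The median log2 ratio of the 8 genes was −0.15, beside −0.05 over all genes kept.

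**Figure D1:**
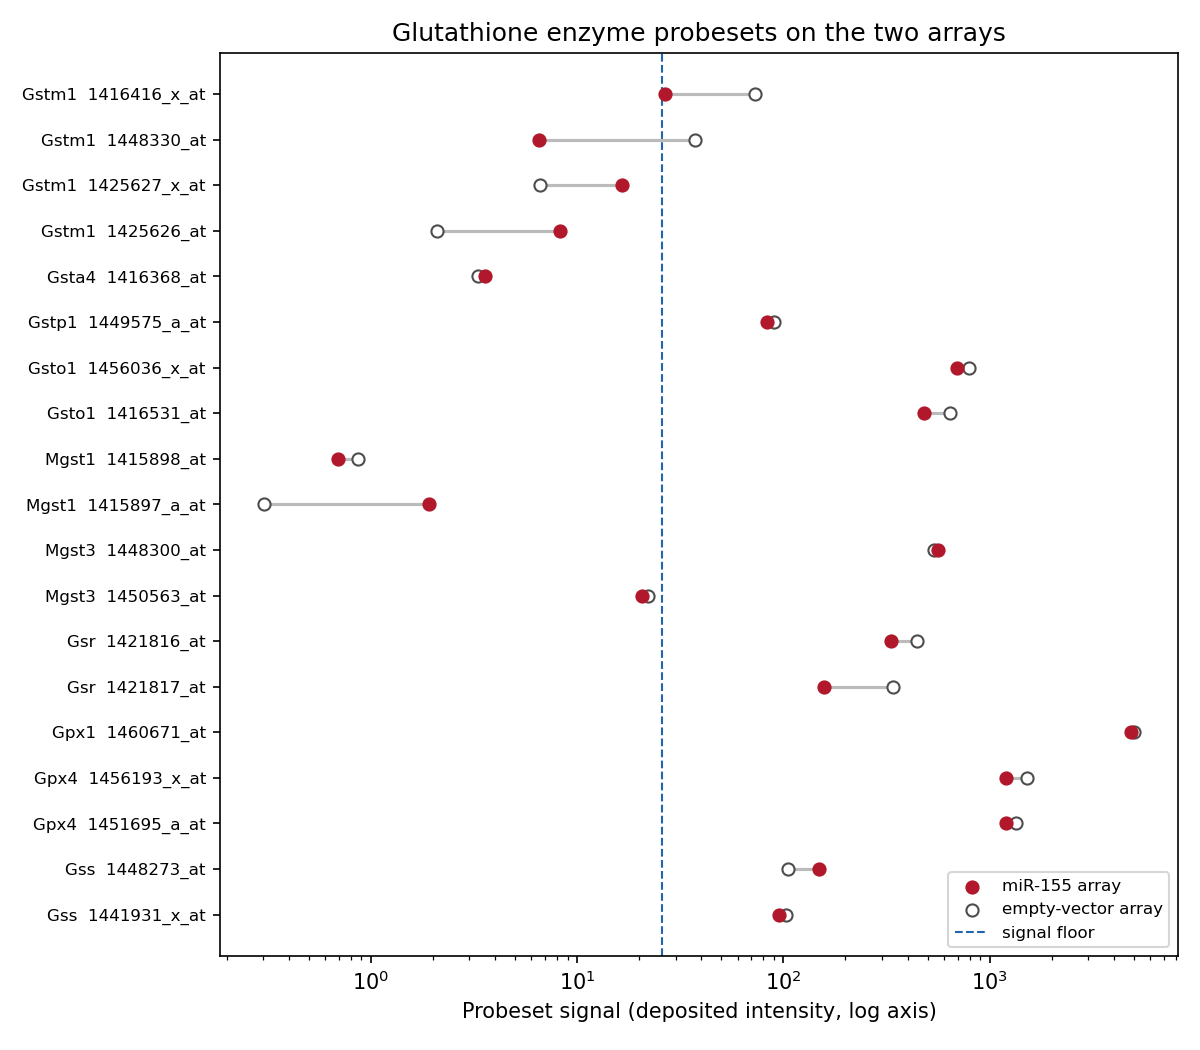
Signal of each of the 19 glutathione enzyme probesets (log axis, deposited intensity) on the miR-155 array (filled red points) and the empty-vector array (open points), 1 array each, with the signal floor of 25.8 as a dashed line. The paired points lie close together for Gpx1, Mgst3 and Gstp1, and farther apart for the second probeset of Gsr, for Gstm1, whose probesets go both ways, and for 1 of the dim Mgst1 probesets.

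Transferases join glutathione to electrophiles. Gstm1, the mu-class enzyme, was the member with the lowest ratio. Its brightest probeset, 1416416_x_at, read 26.6 in miR-155 cells and 72.6 in empty-vector cells. The reading in miR-155 cells was just above the floor of 25.8. The log2 ratio was −1.45 (2.73-fold lower), with a local SD of 0.53, a robust SD taken over the ratios of the 500 genes closest to it in signal. Of those 500 genes, Gstm1 included, 13 had a ratio this low or lower, a rank from which nothing is read, since this comparison was used to choose the genes. The letter x in the probeset name marks probes that can also bind other sequences, so related mu-class transcripts may contribute to this signal.

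The other 3 Gstm1 probesets did not give one answer. Probeset 1448330_at read 6.51 in miR-155 cells and 37.3 in empty-vector cells, lower in the same direction but with the first reading below the floor; with that reading raised to the floor the difference was 1.45-fold. Probeset 1425627_x_at read 16.5 in miR-155 cells and 6.60 in empty-vector cells. Probeset 1425626_at read 8.31 in miR-155 cells and 2.09 in empty-vector cells. The last pair were higher in miR-155 cells but below the floor on both arrays, where the direction of a ratio is poorly determined. With an offset of 50 added to all signals the log2 ratio of the brightest probeset was −0.68. With probesets whose names lack the letter marks s, x and a preferred, Gstm1 no longer passed the filter.

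The promoter of Gstm1 is shown because this gene carried the lowest ratio, and those of Gstp1 and Mgst1 because they were the only members with a match to a searched motif. The windows run from 250 bases before to 50 bases after an annotated start (RefSeq, GRCm38.p6). Motifs searched on both strands were TGACNNNGC, the core of the antioxidant response element that NRF2 and small Maf proteins bind, and TGANTCA, the palindromic AP-1 core that Bach1 and NRF2 partners can also bind within a longer element. The Gstm1 window is at chr3:108017769-108018068 (minus strand), the Gstp1 window at chr19:4037863-4038162 (minus strand) and the Mgst1 window at chr6:138140277-138140576 (plus strand), and capitals mark a motif match.
Gstm1: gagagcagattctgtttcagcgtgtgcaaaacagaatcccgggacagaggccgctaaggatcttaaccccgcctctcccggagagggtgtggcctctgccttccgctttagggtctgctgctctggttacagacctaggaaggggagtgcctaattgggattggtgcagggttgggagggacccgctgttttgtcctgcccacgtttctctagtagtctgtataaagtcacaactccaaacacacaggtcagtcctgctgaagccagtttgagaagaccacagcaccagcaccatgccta
Gstp1: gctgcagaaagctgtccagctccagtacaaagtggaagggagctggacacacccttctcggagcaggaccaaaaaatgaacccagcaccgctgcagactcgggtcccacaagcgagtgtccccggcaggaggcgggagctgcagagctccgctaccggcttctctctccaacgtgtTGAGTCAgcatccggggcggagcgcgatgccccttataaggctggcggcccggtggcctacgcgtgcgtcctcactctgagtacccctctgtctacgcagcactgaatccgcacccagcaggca
Mgst1: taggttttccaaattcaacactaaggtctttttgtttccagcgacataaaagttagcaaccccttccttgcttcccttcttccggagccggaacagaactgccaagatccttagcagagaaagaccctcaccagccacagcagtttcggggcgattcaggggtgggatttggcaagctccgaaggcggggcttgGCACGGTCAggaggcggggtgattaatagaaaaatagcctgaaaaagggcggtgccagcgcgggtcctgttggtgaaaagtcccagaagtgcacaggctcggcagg
Windows were listed for 8 of the 10 genes, all but Gsta4 and Gsr, and 2 of these 13 windows held a match. Gstp1 had TGAGTCA starting 74 bases before the start, and Mgst1 had GCACGGTCA, TGACNNNGC on the other strand, starting 56 bases before it. Of all 32851 promoter windows, 12.4% held TGACNNNGC, 7.81% held TGANTCA and 1.17% held both. These shares are per motif, and of the 13 windows 1 held the first motif and 1 the second. The 13 also include overlapping windows of the same gene, so nothing is read from these counts. Neither Gstm1 window held either motif, which says only that these letters are not in these windows.

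Gstp1, the pi-class transferase, has a nearly identical neighbour, Gstp2, whose transcript may share its signal. It read 83.7 in miR-155 cells and 90.1 in empty-vector cells on its only probeset. The log2 ratio was −0.11 against a local SD of 0.36, a difference smaller than the spread of genes of like signal. Gsto1, the omega-class enzyme that acts as a thioltransferase and reduces dehydroascorbate, was lower in miR-155 cells on both of its probesets. The brighter, 1456036_x_at, read 696 in miR-155 cells and 796 in empty-vector cells (log2 ratio −0.19, local SD 0.18). The other, 1416531_at, read 479 in miR-155 cells and 639 in empty-vector cells (log2 ratio −0.42, local SD 0.20). Both lay within 1.5-fold, and 48.3% of the 2522 genes with 2 probesets above the floor had probesets at least as far apart as these.

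Mgst1 and Mgst3 belong to the membrane-bound transferases, which also act on lipid hydroperoxides. Mgst3 read 561 in miR-155 cells and 537 in empty-vector cells on probeset 1448300_at (log2 ratio 0.06, local SD 0.20), and its dim probeset 1450563_at read 20.7 in miR-155 cells and 22.0 in empty-vector cells. No difference beyond the local spread was seen for it. Mgst1 read 0.69 in miR-155 cells and 0.86 in empty-vector cells on one probeset, and 1.91 in miR-155 cells and 0.30 in empty-vector cells on the other, far below the floor throughout. Gsta4, an alpha-class enzyme that conjugates aldehydes from lipid peroxidation, read 3.57 in miR-155 cells and 3.32 in empty-vector cells. For Mgst1 and Gsta4 these readings allow no ratio.

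The peroxidases Gpx1 and Gpx4 are selenoproteins. Gpx1, the cytosolic enzyme that reduces hydrogen peroxide, read 4859 in miR-155 cells and 5004 in empty-vector cells, and 99.5% of all probesets read as low or lower on either array. Its log2 ratio was −0.04 with a local SD of 0.11, and it turned to 0.04 when the median log2 ratio of all probesets was set to 0. Gpx4, which reduces phospholipid hydroperoxides within membranes and restrains ferroptosis, was lower on both probesets by less than 1.5-fold. Probeset 1456193_x_at read 1200 in miR-155 cells and 1518 in empty-vector cells (log2 ratio −0.34, local SD 0.16). Probeset 1451695_a_at read 1193 in miR-155 cells and 1341 in empty-vector cells (log2 ratio −0.17, local SD 0.16). The first lay 1.69 local SDs below the local median and the second 0.63.

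Gsr, which regenerates reduced glutathione with NADPH, was lower in miR-155 cells on both probesets, by unequal amounts. The brighter, 1421816_at, read 332 in miR-155 cells and 445 in empty-vector cells (1.34-fold lower, log2 ratio −0.42, local SD 0.21). The other, 1421817_at, read 157 in miR-155 cells and 341 in empty-vector cells (2.18-fold lower, log2 ratio −1.12, local SD 0.24). None of the 500 genes nearest in signal had a ratio as low as that of the second probeset, and 30 of 500, Gsr included, were as low as the first. Those 500 genes were read by their brightest probesets, which the second Gsr probeset is not. Since this comparison was also used to choose the genes, nothing is read from either rank. The probesets differed by 0.70 on the log2 scale, and 9.56% of the 2522 genes with 2 probesets above the floor differed by as much. The gene count uses the brighter probeset, so Gsr was not among those 1.5-fold lower; with the mean of both (log2 ratio −0.77) it was.

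Gss joins glycine to γ-glutamylcysteine in the last step of glutathione synthesis. Probeset 1448273_at read 150 in miR-155 cells and 105 in empty-vector cells (1.42-fold higher, log2 ratio 0.50, local SD 0.30). Probeset 1441931_x_at read 95.5 in miR-155 cells and 103 in empty-vector cells (log2 ratio −0.11, local SD 0.36). The probesets disagreed in direction, 0.61 apart on the log2 scale, as far as 13.0% of genes with 2 such probesets, so no direction is given for Gss.

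Across all 12 probesets of these genes at or above the floor, 10 read lower in miR-155 cells, 2 of them by at least 1.5-fold (the brightest of Gstm1 and the second of Gsr), and 0 were at least 1.5-fold higher. Among all 15673 such probesets of the array 58.8% read lower in miR-155 cells, 7.13% were at least 1.5-fold lower and 5.03% at least 1.5-fold higher. Probesets of one gene are not independent of each other.

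**Figure D2:**
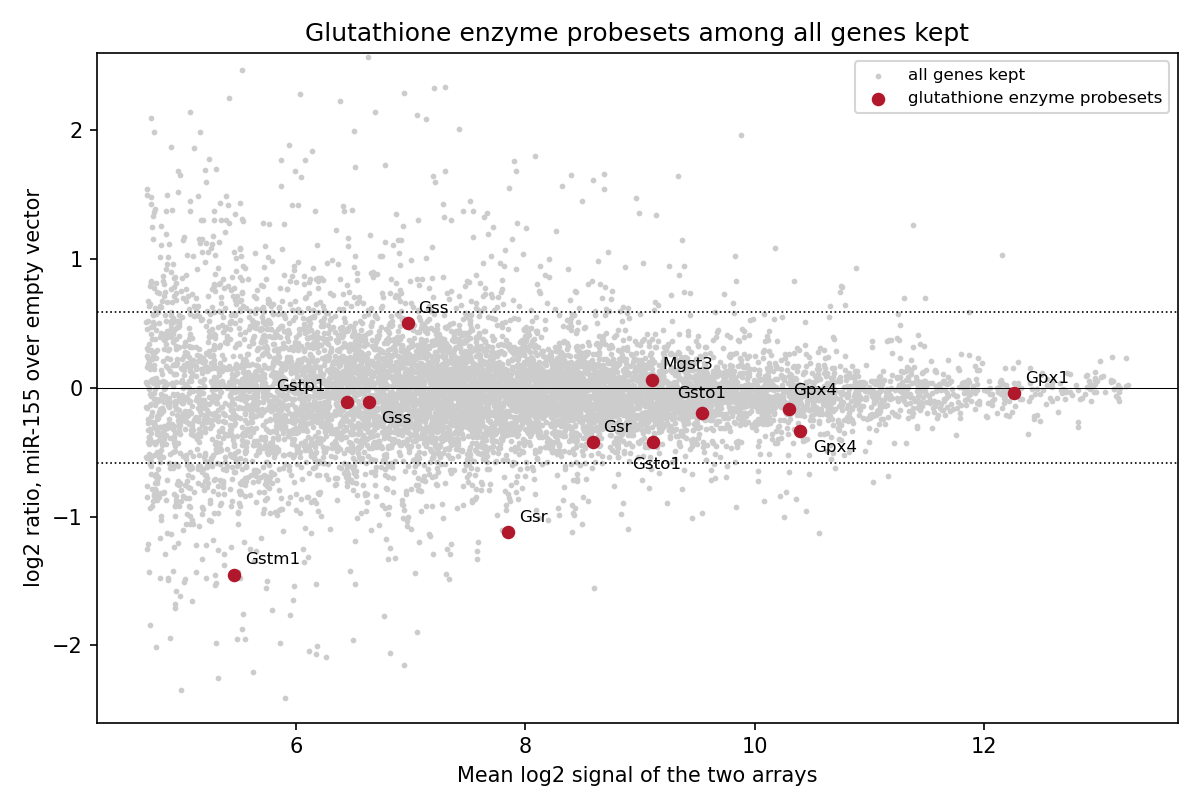
Log2 ratio of miR-155 over empty vector against the mean log2 signal of the 2 arrays, for the 9097 genes kept (grey; 14 lie outside the vertical axis) and the 12 glutathione enzyme probesets at or above the floor (red). Dotted lines mark 1.5-fold, and of the red points only Gstm1 and the second probeset of Gsr lie beyond them; the grey points spread more widely at low signal.

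Other genes of the same chemistry were taken from 6 lists, read beside the same 5.99% lower and 5.32% higher over all genes. Here, as for the cell markers above, a gene counted as on the array only if it had a probeset with a single gene symbol. Of 24 further genes of the transferase families and their relatives on the array, 9 were kept, with 2 at least 1.5-fold lower, 2 at least 1.5-fold higher and a median log2 ratio of −0.07. Mgst2, a membrane-bound transferase, read 107 in miR-155 cells and 248 in empty-vector cells (log2 ratio −1.22, local SD 0.27). Gstm3, of the mu class, read 28.4 in miR-155 cells and 55.8 in empty-vector cells (log2 ratio −0.97, local SD 0.57) on a probeset whose letter s marks probes shared by several transcripts; with an offset of 50 it was at −0.43, within 1.5-fold. Both were lower in miR-155 cells, while the higher ones were Hpgds and Ltc4s. Hpgds, the haematopoietic prostaglandin D synthase, read 106 in miR-155 cells and 49.3 in empty-vector cells (log2 ratio 1.11, local SD 0.39), and Ltc4s, leukotriene C4 synthase, read 54.8 in miR-155 cells and 25.1, just below the floor, in empty-vector cells. The median of the list depended on the probesets. It was 0.27 with the mean of all probesets, and 0.27 with probesets lacking the letter marks s, x and a preferred. In both settings Gstm3 missed the filter, and the lower genes were Gstm4 and Mgst2. With the median log2 ratio of all probesets set to 0, Gstt3 also passed 1.5-fold higher.

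The mu-class genes Gstm1 to Gstm7 are neighbours on mouse chromosome 3, with at most 1 other gene between each and the next in the RefSeq table. Together they had 12 probesets, of which 2, the brightest of Gstm1 and of Gstm3, were at or above the floor on both arrays, 3 on 1 array and 7 on neither. Gstm4 read 16.7 in miR-155 cells and 30.1 in empty-vector cells. Gstm7 went the other way on its brighter probeset, at 30.3 in miR-155 cells and 21.2 in empty-vector cells. The readings of this class were dim on both arrays, and sequence shared within it leaves the source of each signal uncertain.

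Of 13 other genes of peroxide removal on the array 6 were kept (Prdx2, Prdx3, Prdx4, Cat, Sod1 and Sod2), and by their brightest probesets 0 differed by 1.5-fold, with a median log2 ratio of −0.15 and a range of −0.42 to 0.01. Catalase, Cat, was the lowest, at 377 in miR-155 cells and 506 in empty-vector cells, and its second probeset was at −0.63 on the log2 scale, past 1.5-fold. Sod1, the cytosolic superoxide dismutase, was at −0.16 on its brightest probeset, while 1 of its dimmer ones read 28.7 in miR-155 cells and 46.8 in empty-vector cells (−0.70). With the mean of all probesets 2 genes of this list, Gpx2 and Sod1, were at least 1.5-fold lower. The Gpx2 probeset was below the floor on both arrays, and a Sod1 probeset far below it read 0.34 in miR-155 cells and 7.17 in empty-vector cells. With only probesets at or above the floor averaged, 0 genes of the list were 1.5-fold lower. With probesets lacking the letter marks s, x and a preferred, 1 gene, Cat, was lower. Prdx1, Prdx5 and Prdx6 were listed but had no probeset with a single gene symbol, so they were not read. The other 6 glutathione peroxidase genes on the array, Gpx2, Gpx3, Gpx5, Gpx6, Gpx7 and Gpx8, were below the floor on both arrays. Gpx1 and Gpx4 were thus the glutathione peroxidases with a clear signal on both.

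For glutathione synthesis, breakdown and export, 11 of 17 genes were kept, with 1 at least 1.5-fold lower, 0 at least 1.5-fold higher and a median log2 ratio of 0.06. The lower one was Cth, cystathionine γ-lyase, which makes cysteine and read 17.8 in miR-155 cells, below the floor, and 53.4 in empty-vector cells. The catalytic subunit of the rate-limiting ligase, Gclc, read 385 in miR-155 cells and 520 in empty-vector cells (log2 ratio −0.43, and −0.69 on its second probeset). The modifier subunit Gclm read 522 in miR-155 cells and 512 in empty-vector cells (0.03, and 0.04 on its second probeset). Gclc and Gclm were named after their values were seen, as the partner subunits of the step before Gss. When the median log2 ratio of all probesets was set to 0, the γ-glutamyltransferase Ggt5 of this list passed 1.5-fold higher. With the mean of all probesets 2 genes, Cth and Ggt6, were at least 1.5-fold lower and the median of the list was −0.03. The same 2 genes were lower with probesets lacking the letter marks s, x and a preferred, where the median was 0.05.

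Of 15 thioredoxin, glutaredoxin and related genes, 13 were kept, with 2 at least 1.5-fold lower, 1 at least 1.5-fold higher and a median log2 ratio of −0.21. Txnrd1, the cytosolic thioredoxin reductase and like Gsr an NADPH-dependent enzyme, read 936 in miR-155 cells and 1642 in empty-vector cells (log2 ratio −0.81, local SD 0.15), with −0.32 and −0.30 on its further probesets; the mean of all its probesets, −0.48, was within 1.5-fold. Hagh, glyoxalase II, read 289 in miR-155 cells and 438 in empty-vector cells (log2 ratio −0.60, local SD 0.22), but was within 1.5-fold under either rescaling of the arrays. Glrx, glutaredoxin, which uses glutathione to reduce mixed disulfides, read 295 in miR-155 cells and 146 in empty-vector cells (log2 ratio 1.02, local SD 0.27), with 1.03 on its second probeset. Glrx was thus 2.03-fold higher in the cells where Gsr and Txnrd1 read lower.

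Enzymes that supply NADPH had the lowest median of the 6 lists for the values as deposited, −0.24 over the 10 genes kept, with 8 of the 10 below 0 (58% over all genes kept), 2 at least 1.5-fold lower and 0 at least 1.5-fold higher. Me1, the cytosolic malic enzyme, read 172 in miR-155 cells and 299 in empty-vector cells (log2 ratio −0.80, local SD 0.25), with −1.11 on its second probeset. Idh2, the mitochondrial NADP-dependent isocitrate dehydrogenase, read 537 in miR-155 cells and 835 in empty-vector cells (log2 ratio −0.64, local SD 0.19). It was within 1.5-fold with the median log2 ratio of all probesets set to 0 (−0.56) or with its probesets averaged (−0.58). The median of the list moved to −0.17 under that rescaling and to −0.48 with the mean of all probesets, some of them below the floor. With only probesets at or above the floor averaged it was −0.30. The NADPH list was not the lowest in every setting. With probesets lacking the letter marks s, x and a preferred, its median was −0.25, and that of the thioredoxin and glutaredoxin list was −0.34. With quantile normalisation the medians were −0.190 and −0.195, in the same order. G6pdx was listed but had no probeset with a single gene symbol, so it was not read.

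**Figure D3:**
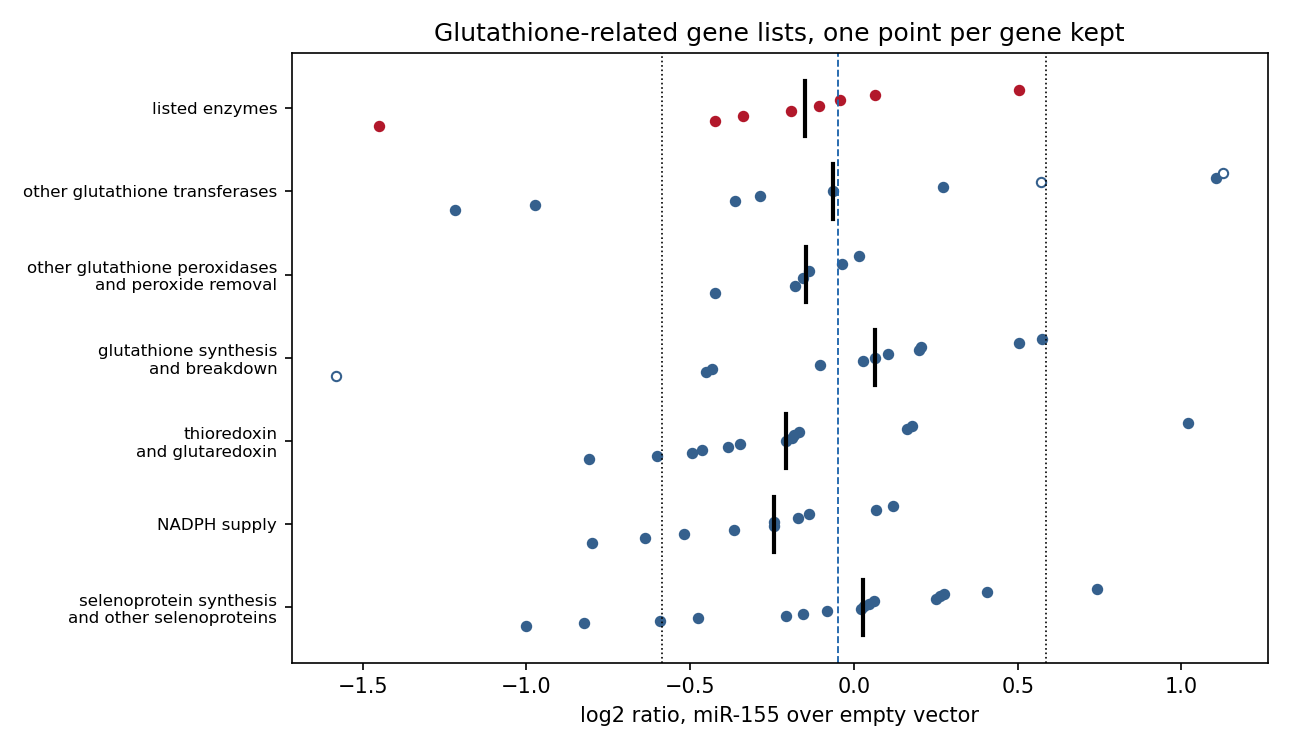
Log2 ratio of miR-155 over empty vector for each gene kept, in the 8 listed glutathione enzymes (red, top row) and 6 related lists (blue), with the median of each row as a black bar, 1.5-fold as dotted lines and the median of all genes kept (−0.05) as a dashed line. Open points have a reading below the floor on 1 array; the rows for NADPH supply and for thioredoxin and glutaredoxin have medians of −0.24 and −0.21.

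The regulators that cross this family were read beside it. Nfe2l2, which encodes NRF2, read 494 in miR-155 cells and 994 in empty-vector cells, Bach1 read 127 in miR-155 cells and 290 in empty-vector cells, and Keap1, the adaptor that targets NRF2 for degradation, read 278 in miR-155 cells and 268 in empty-vector cells. Hmox1, heme oxygenase and a target of both factors, went the other way from Nfe2l2 and Bach1, at 391 in miR-155 cells and 213 in empty-vector cells (1.84-fold higher). The part of these regulators in the ratios of the glutathione enzymes was not tested.

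**Figure D4:**
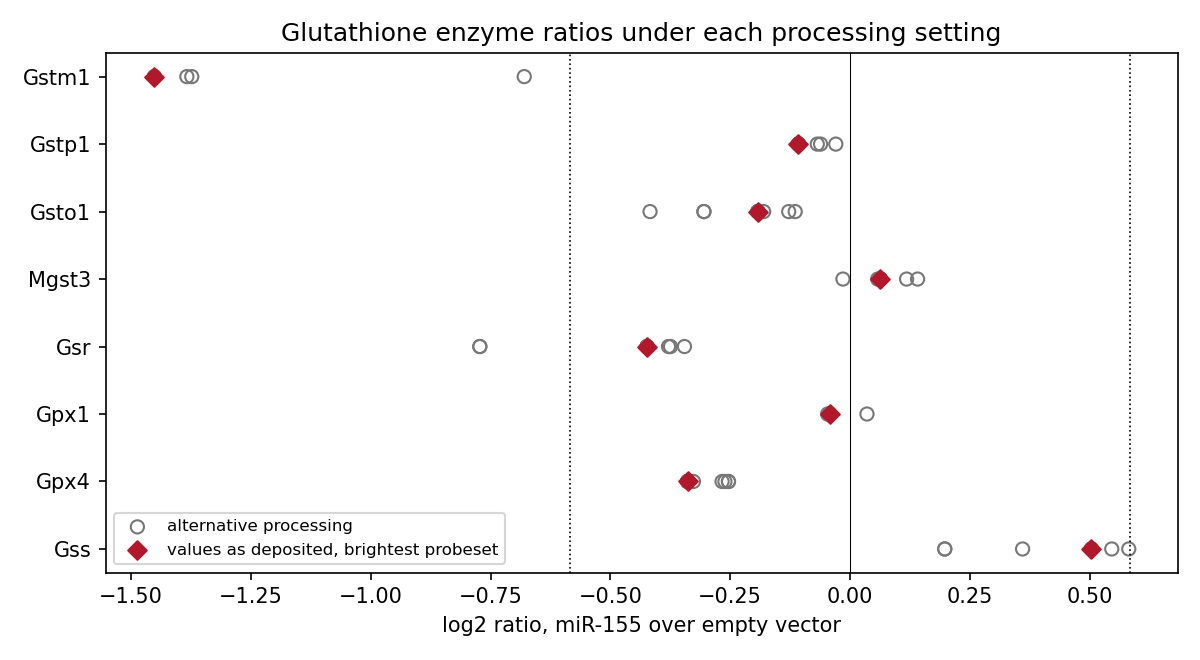
Log2 ratio of miR-155 over empty vector for the 8 glutathione enzymes kept, for values as deposited with the brightest probeset (red diamonds) and under up to 9 other processing settings (open circles), with 1.5-fold as dotted lines. Gstm1, read on the same probeset throughout, runs from −1.45 to −0.68. Gsr runs from −0.77 to −0.35 and Gss from 0.20 to 0.58, while Gpx1 stays between −0.05 and 0.04.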

How the data were processed

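RNA of 2 pools of RAW264.7 clones was measured on 1 Affymetrix array each. The values deposited by the authors are probeset intensities on a linear scale; detection calls and the way they were summarised, background-corrected and scaled were not given in the sources used here. Probesets were named through the platform annotation: without 64 control probesets, 34945 had 1 gene symbol, 932 several and 9160 none. Entrez identifiers of all 19 probesets of the glutathione enzymes were found in the RefSeq table of GRCm38.p6 with the same symbols. Ratios are miR-155 over empty vector, on the log2 scale and with no offset. Genes were counted at 1.5-fold. Without detection calls, readings below the floor of 25.8 are printed as signals, not as ratios, except as named alternatives (a reading raised to the floor, or probesets averaged). With 1 array per group no p-value or standard error was computed, and the number of arrays limits the precision. The enzymes and the 6 lists were chosen with earlier results of these data known. Of each list, up to 4 genes with the largest ratios past 1.5-fold were named. Steps were tested on simulated signals, with Python 3.11.15, NumPy 2.4.6 and pandas 2.3.3.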

Additional observations from a re-analysis of the deposited data

How the results depend on the processing

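Of the recomputed ratios of the 8 enzymes kept, 61 moved by less than the local SD and 6 by more. The 61 include ratios that could not move. A changed filter leaves a ratio as it was, and all 8 enzymes read above the floor on both arrays before readings were raised to it. The only enzyme 1.5-fold apart, Gstm1, was lower in the 6 settings that kept it, but all 6 read the same probeset, 1416416_x_at. Its dimmer probesets, some of them higher in miR-155 cells, did not enter these settings. The unchanged direction therefore says nothing beyond that 1 probeset. The count of enzymes at least 1.5-fold lower was 1 for the values as deposited. It was 0 in the upper 25% of genes by signal and 0 with probesets lacking the letter marks s, x and a preferred. Gstm1 missed the signal filter in both. The count was 2, Gstm1 and Gsr, with the mean of the probesets above the floor, a setting chosen after the data were seen. With the mean of all probesets the count was also 1, but the gene was Gsr, as the 4 averaged Gstm1 probesets missed the filter. The count of higher enzymes was 0 in all 9 settings, and their median ran from −0.19 to −0.07. The genes past 1.5-fold in the whole table numbered 3848 lower and 3111 higher with no signal filter, 95 and 110 in the upper 25%, 196 and 205 with an offset of 50, and 914 and 696 with the mean of all probesets, against 545 and 484. No paired analysis was possible because each group has 1 array.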

Other observations

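Selenoproteins, the class to which Gpx1 and Gpx4 belong, went in both directions. Of 17 genes of selenocysteine insertion and other selenoproteins on the array, 16 were kept, with 3 at least 1.5-fold lower, 1 at least 1.5-fold higher (5.99% and 5.32% over all genes) and a median log2 ratio of 0.03. Selenot, a thioredoxin-like protein of the endoplasmic reticulum, read 867 in miR-155 cells and 1737 in empty-vector cells (log2 ratio −1.00, local SD 0.15), with −1.05 on its second probeset above the floor; averaging in 2 more probesets, both below the floor, turned the ratio to 0.66. Eefsec, the elongation factor that delivers selenocysteine to the ribosome, read 174 in miR-155 cells and 307 in empty-vector cells (log2 ratio −0.82, local SD 0.24). Selenow, a small redox protein, was higher on both probesets, at 2225 in miR-155 cells and 1330 in empty-vector cells on the brighter (log2 ratio 0.74, local SD 0.15) and at 1.28 on the log2 scale on the other. Selenon was at −0.59, within 1.5-fold under either rescaling of the arrays. Sephs2, which makes the selenium donor, read 1217 in miR-155 cells and 1198 in empty-vector cells.

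Pgd, the 6-phosphogluconate dehydrogenase of the pentose phosphate pathway, was within 1.5-fold on its brightest probeset (3061 in miR-155 cells and 3946 in empty-vector cells, log2 ratio −0.37), while its 3 further probesets gave −0.63, −0.64 and −0.88. Selenop, the secreted selenium carrier, read 56.7 in miR-155 cells and 5.20, below the floor, in empty-vector cells. Txnrd3, a testis-enriched thioredoxin reductase, read 13.3 in miR-155 cells and 39.5 in empty-vector cells on its brightest probeset. Pgd, Selenop, Txnrd3 and Sephs2 were named after their values were seen.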
